A study of Mus musculus with 10 samples.

Results

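The aminoacyl-tRNA synthetase genes of mouse quadriceps muscle were followed across 10 RNA-sequencing libraries, 5 from Control mice and 5 from mice given a supplement called 1C-MIM. The genes were taken by symbol from a fixed list of 36, of 24063 symbols in the tables. All 36 were found, 20 for the cytosolic enzymes and 16 for the mitochondrial ones, whose symbols end in 2. The tables spell the cytosolic symbols without a final 1 (Aars, Eprs, Mars). For each symbol the transcript with the largest total count was kept.

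All animals were wild-type (WT) C57BL mice between 17 and 20 months old. Control mice drank the facility's water, and 1C-MIM mice drank the same water with the supplement for 1 to 3 months. What 1C-MIM contains is not stated in the labels. All mice, Controls included, had an injured tibialis anterior, and the RNA was taken from their quadriceps, which was not injured. Water was given at 150 mL per cage, with up to 5 mice in a cage. Each library has its own animal number in its name, so replicates are animals. The p-values set the difference between groups against the spread between animals within them. Cage, litter and library batch are not labelled, so which animals shared a cage is unknown and the part of cage in the differences could not be tested.

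Synthetases join each amino acid to its transfer RNA, the step that fixes the meaning of the genetic code. Cytosolic translation and the translation of the few proteins made inside mitochondria use separate synthetases for most amino acids, and both sets are encoded in the nucleus. Gars (glycine) and Kars (lysine) each supply both compartments from a single gene, and Eprs carries the glutamate and the proline enzyme in a single chain. In the cytosol, 8 of the 20 listed genes make enzymes that sit together in the multisynthetase complex: Eprs, Iars, Lars, Mars, Qars, Rars, Kars and Dars. Many cytosolic synthetase genes are known targets of ATF4, the transcription factor of the amino acid and endoplasmic reticulum stress responses.

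Start-site sequence was examined because ATF4 and its partners bind an element whose core can be written TGATGNAA, searched on both strands, and the genes could then be set beside their fold changes. RefSeq start-site windows (build GRCm38.p6, 250 bases before and 50 after the annotated start) were at hand for 27 of the 36 genes, 13 cytosolic and 14 mitochondrial. The element occurred, on either strand, in 5 of 13 cytosolic genes and 0 of 14 mitochondrial genes, against 3.97% of all 32851 windows. The stretches of 60 bases that hold it are shown with the element in capitals, on the gene's strand. Iars and Yars run from 30 bases before to 30 after the start, Gars has 4 bases after it and Tars 19, and Aars lies wholly before it (a second match in Aars, starting at position 9 after the start, is not shown).
Iars, chr13:49682100-49682159, plus strand: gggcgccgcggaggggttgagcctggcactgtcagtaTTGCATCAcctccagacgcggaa
Aars, chr8:111033704-111033763, plus strand: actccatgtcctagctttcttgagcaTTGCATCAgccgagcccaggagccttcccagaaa
Gars, chr6:55037945-55038004, plus strand: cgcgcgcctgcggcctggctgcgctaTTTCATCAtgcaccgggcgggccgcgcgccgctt
Tars, chr15:11399640-11399699, minus strand: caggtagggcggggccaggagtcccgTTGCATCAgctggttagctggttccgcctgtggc
Yars, chr4:129189873-129189932, plus strand: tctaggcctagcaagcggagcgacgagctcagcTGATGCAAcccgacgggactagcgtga

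Of the genes called as changed in the comparison described next, Eprs, Mars and Cars2 had a window without the element. Their last 100 bases before the start are shown for comparison, with no capitals since these letters do not occur in them.
Eprs, chr1:185362944-185363043, plus strand: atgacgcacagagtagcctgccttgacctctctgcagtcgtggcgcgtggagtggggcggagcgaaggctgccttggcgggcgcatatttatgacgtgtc
Mars, chr10:127311787-127311886, minus strand: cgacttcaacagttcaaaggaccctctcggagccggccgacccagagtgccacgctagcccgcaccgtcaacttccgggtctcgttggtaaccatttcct
Cars2, chr8:11550772-11550871, minus strand: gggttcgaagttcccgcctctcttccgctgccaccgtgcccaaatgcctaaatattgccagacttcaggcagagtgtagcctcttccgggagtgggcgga

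The libraries held 28521254 to 31771296 counts on the kept transcripts, and the 36 synthetase genes took 0.217 to 0.249% of them. The tissue label was checked with 12 muscle fibre markers, whose summed level was 179400 to 205200 counts per 1000000 (CPM) in Control and 191700 to 217100 in 1C-MIM. Of these 12 markers, 3 were higher and 1 lower in 1C-MIM at an adjusted p under 0.05. That threshold called 9.78% of all 13880 tested genes as higher and 11.8% as lower, the shares beside which the marker counts stand. Of 11 tested macrophage markers, 0 were higher and 9 lower in 1C-MIM, and their sum ran from 279 to 526 CPM in Control and from 160 to 228 in 1C-MIM. Of 6 fibroblast markers 4 were lower (772 to 1124 CPM against 539 to 854), and of 5 endothelial markers 4 were higher (140 to 199 CPM against 205 to 236). Of 5 satellite cell and myoblast markers 0 were higher and 2 lower, and their sums did not overlap (67.7 to 73.7 CPM against 50.4 to 58.4). Of 5 tested lymphocyte markers 2 were lower, and of 4 adipocyte markers 1 was higher and 1 lower. Among 5 Schwann markers 1 was higher and 0 lower, and among 3 tested neural markers 0 were higher and 1 lower. Of the markers found in the tables, none was at 0 in all libraries, and 1 of the 12 macrophage markers listed was not found. In whole muscle, fewer cells of a type and less RNA per cell cannot be told apart, and the part of these cell types in the synthetase values was not tested. Control 1 stood apart in neural markers, with a sum of 39.6 CPM against 4.84 to 7.57 in the other libraries.

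Before any comparison of groups, the levels of the genes differed widely. Per kilobase of transcript, the median Control level was 24.8 CPM per kilobase for the cytosolic genes and 8.30 for the mitochondrial genes. The cytosolic genes ran from Vars (valine; 12.9 ± 0.679 CPM per kilobase, SD, n = 5) to Kars (57.4 ± 2.81). After Kars came Eprs (56.0 ± 1.29) and Nars (asparagine; 53.5 ± 1.65), then Aars (alanine; 37.4 ± 2.31) and Gars (34.7 ± 2.33). The Control ranges of Kars, Eprs and Nars overlapped, so these 3 could not be ordered, whereas Aars at 34.0 to 40.3 lay below all of them. Of the 16 mitochondrial genes, 12 lay below Vars. The lowest were Pars2 (proline; 1.63 ± 0.279), Wars2 (tryptophan; 1.67 ± 0.213), Mars2 (methionine; 1.91 ± 0.232) and Nars2 (1.94 ± 0.199), whose ranges overlapped as well. At the other end, Iars2, the mitochondrial isoleucine enzyme, stood at 22.5 ± 1.75, above its cytosolic counterpart Iars at 19.1 ± 2.00. Lars2, the mitochondrial leucine enzyme, had the highest mean of all, 58.1, but its Control libraries ran from 36.3 to 89.2. Whether reads from ribosomal RNA are counted for Lars2 was not tested, so its level, its rank and its ratio to Lars are uncertain.

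Set side by side for each amino acid, 17 pairs of a cytosolic and a mitochondrial gene could be formed. In Control muscle the cytosolic gene was at 34.9 times the mitochondrial one per kilobase for Eprs over Pars2, at 27.7 times for Nars over Nars2, at 12.9 times for Mars over Mars2 and at 10.2 times for Wars over Wars2. The ratio was near 1 for Farsa (1.09), a subunit of the cytosolic phenylalanine enzyme, over Fars2. It was below 1 for Iars over Iars2 (0.846) and Lars over Lars2 (0.281).

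**Figure D1:**
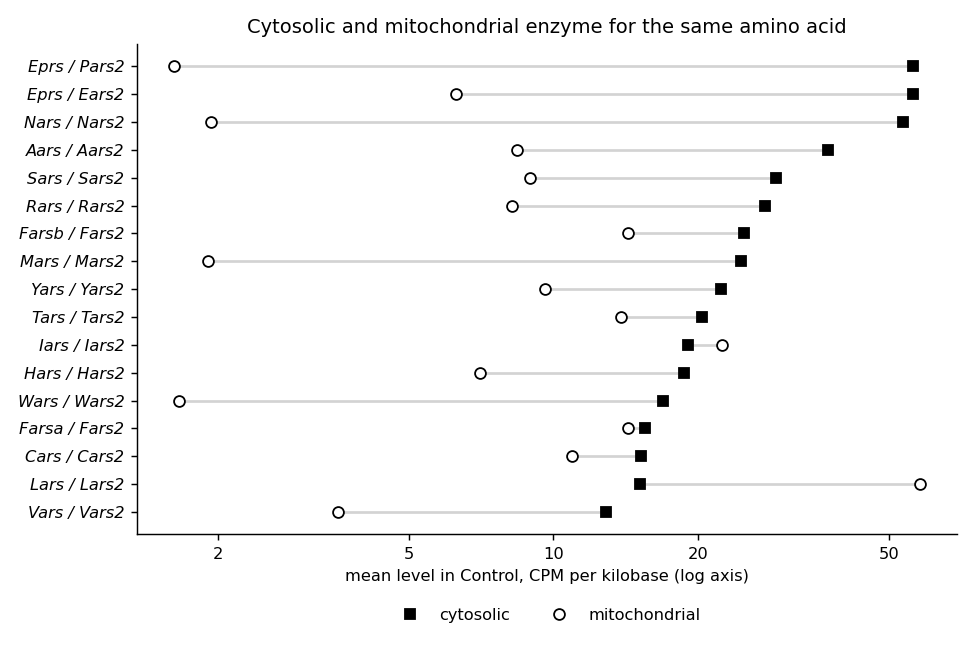
Mean Control level of each cytosolic gene (filled squares) and of the mitochondrial gene for the same amino acid (open circles), in CPM per kilobase of transcript on a log axis, n = 5 libraries. The mitochondrial gene lies to the left in 15 of 17 pairs and to the right for isoleucine and leucine.

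Synthetase levels were then compared between supplemented and Control muscle. Only 5 of the 36 genes were called at an adjusted p under 0.05. Eprs, Mars, Iars and Lars were higher in 1C-MIM, all 4 of them enzymes of the multisynthetase complex, and the mitochondrial cysteine enzyme Cars2 was lower. The changes were small, between 12.9 and 23.0% upwards and 14.7% downwards. Over all 13880 genes tested, 21.6% were called, 9.78% as higher and 11.8% as lower. By class, 4 of 20 cytosolic genes were higher and 0 lower, with a median log2 fold change of 0.05, and 0 of 16 mitochondrial genes were higher and 1 lower, with a median of -0.03. The median over all tested genes was 0.00. With libraries scaled by their totals alone, the cytosolic median turned to -0.03, while that of all genes moved to -0.07. Counted together, the share of synthetase genes called was below that of all genes.

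Eprs had 277, 278, 274, 267 and 264 CPM in Control 1 to 5 and 319, 331, 311, 323 and 311 CPM in 1C-MIM 1 to 5. Every 1C-MIM library lay above every Control library. The means were 271.8 ± 6.25 and 319.0 ± 8.40 CPM (SD, n = 5 in each). On the log2 scale Eprs was 0.23 higher (SE 0.05, adjusted p = 0.00528 by edgeR's quasi-likelihood test).

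Mars, which charges the initiator and elongator methionine transfer RNAs, had 67.3, 80.4, 70.7, 74.2 and 71.5 CPM in Control and 85.5, 87.0, 89.8, 86.0 and 87.6 CPM in 1C-MIM. Again the groups did not overlap, and the 1C-MIM libraries lay closer together than the Controls (SD of 1.69 against 4.91). The log2 fold change was 0.26 (SE 0.06, edgeR adjusted p = 0.00699). In the GENCODE M21 annotation, exons of Mars overlap exons of Ddit3, a stress transcription factor on the opposite strand, and whether the counting used strand is not stated in the labels. Ddit3 itself had means of 17.6 and 14.8 CPM and was not called (log2 fold change -0.25, edgeR adjusted p = 0.0673).

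Iars had 88.3, 94.8, 81.1, 84.3 and 71.2 CPM in Control and 93.6, 111, 108, 110 and 94.7 CPM in 1C-MIM. The groups met at their edges, since Control 2 lay just above 1C-MIM 1 and 1C-MIM 5. The log2 fold change was 0.30 (SE 0.08, edgeR adjusted p = 0.0184), the largest among the called synthetase genes.

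Lars had 55.9, 57.0, 56.8, 56.2 and 62.2 CPM in Control and 70.7, 65.9, 61.8, 62.5 and 64.2 CPM in 1C-MIM. Control 5 stood above the other Controls and above 1C-MIM 3. The log2 fold change was 0.17 (SE 0.06, edgeR adjusted p = 0.0392). Its call held only when Control 5 or 1C-MIM 3 was the library left out. Leaving out any other single library ended it (adjusted p of up to 0.0884), with fold changes of 0.15 to 0.21 over all 10. With the series of the animal numbers as a block the adjusted p was 0.0526.

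Cars2 had 19.8, 19.5, 19.5, 21.4 and 21.3 CPM in Control and 17.3, 17.0, 17.8, 16.7 and 17.7 CPM in 1C-MIM. Every 1C-MIM library lay below every Control library, and the log2 fold change was -0.23 (SE 0.06, edgeR adjusted p = 0.0143). Exons of Cars2 overlap exons of Naxd on the opposite strand, listed in the tables under its older symbol Carkd, a repair enzyme for damaged NADH. Carkd also fell, from 31.9 ± 1.72 to 28.0 ± 1.61 CPM (log2 fold change -0.19, edgeR adjusted p = 0.0411). How far the counts of Cars2 and Carkd share reads was not tested.

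Groups without overlap were found for Eprs, Mars and Cars2, 3 of the 36 genes, against 14.6% of all tested genes. The called genes moved the same way in animals of both number series in the deposited names. Since they were called on these same libraries, the shared direction is not an independent check. In the series starting with 2 (3 animals per group) the log2 differences were 0.21 for Eprs, 0.27 for Mars, 0.24 for Iars, 0.22 for Lars and -0.17 for Cars2. In the series starting with 3 (2 animals per group) they were 0.26, 0.25, 0.39, 0.10 and -0.31 in the same order.

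**Figure D2:**
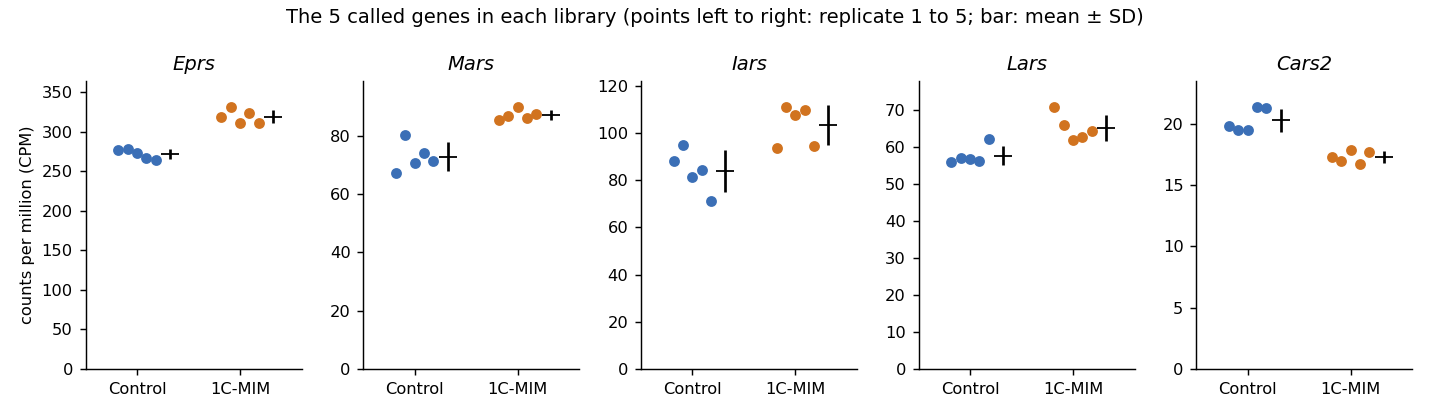
Level of the 5 called genes in each library, in CPM on axes that start at 0, with Control libraries in blue, 1C-MIM libraries in orange and bars for the mean ± SD of 5 libraries. Eprs, Mars and Cars2 show separate groups, while Iars and Lars overlap at their edges.

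The 8 genes of the multisynthetase complex had 4 higher and 0 lower, with a median log2 fold change of 0.14, and the 12 cytosolic genes outside it had 0 called, with a median of 0.00. Over all tested genes, 9.78% were higher and 11.8% lower. Library totals as the scaling left 2 of the complex genes called higher. Within the complex the other members stood at 0.11 (Dars, aspartate; SE 0.06), 0.08 (Kars; SE 0.06), 0.05 (Qars, glutamine; SE 0.05) and -0.05 (Rars, arginine; SE 0.05). The 4 called members have the longest transcripts of the complex, Eprs with 4850 bases, Iars 4396, Lars 3806 and Mars 2963, against 2131 to 2501 for the others. Fold changes followed transcript length over all genes: the median was 0.14 in the tenth of genes with lengths like that of Eprs and -0.09 in that of Cars2. Each value was therefore also computed with that trend taken out of every library. The log2 fold change was then 0.25 for Mars (edgeR adjusted p = 0.00351) and 0.21 for Iars (0.0209), both still called. It was 0.12 for Eprs (0.0566), 0.11 for Lars (0.208) and -0.13 for Cars2 (0.0851), none of them called. The shorter members stood higher than before, Dars at 0.16 (0.104) and Kars at 0.13 (0.0562), and the median of the 8 complex genes was 0.13, against 0.00 for all genes. The called mitochondrial gene, Cars2, has a short transcript of 1850 bases.

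**Figure D3:**
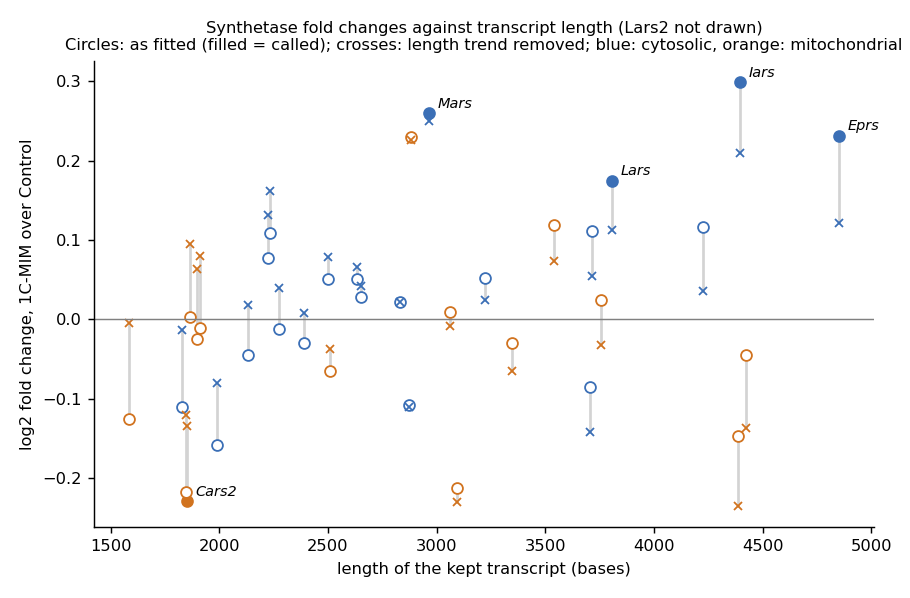
Log2 fold change of 35 synthetase genes (Lars2 left out) against the length of the kept transcript in bases, as fitted (circles, filled where called) and with the length trend removed (crosses), cytosolic genes in blue and mitochondrial genes in orange. Values of the long transcripts Eprs, Iars and Lars move down and that of the short Cars2 moves up, while Mars stays near 0.25.

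Synthetases fall into classes I and II by the fold of their catalytic domain, which the choice of genes did not use. Grouped in this way after the values were seen, class I held all 4 higher genes among its 10 cytosolic members, Eprs being counted by its glutamate enzyme, and class II held 0 among 10. The medians were 0.08 and 0.01, and 0.06 and 0.04 with the length trend removed. Median transcript lengths were 3092.5 and 2332 bases. Among mitochondrial genes the medians were -0.045 for 9 of class I, Cars2 among them, and -0.025 for 7 of class II.

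The 16 cytosolic genes that were not called lay between -0.16 and 0.12 on the log2 scale, with SEs of 0.05 to 0.07. The lowest was Hars, the histidine enzyme, at 34.9 to 39.2 CPM in Control (median 36.7) and 29.9 to 36.6 in 1C-MIM (median 33.8). Its log2 fold change was -0.16 (SE 0.07, edgeR adjusted p = 0.1). The alanine enzyme gene Aars had 139 ± 8.60 and 150 ± 5.00 CPM and was not called (log2 fold change 0.11, edgeR adjusted p = 0.16). Vars stood at 0.12, Yars (tyrosine) at -0.11, Farsa at -0.11 and Sars (serine) at -0.09. Another 7 genes, Cars (cysteine), Tars (threonine), Nars, Wars (tryptophan), Farsb, Gars and Rars, lay between -0.05 and 0.05. Wars, a gene known to respond to interferon, had 48.0 ± 1.62 CPM in Control and 48.8 ± 1.71 in 1C-MIM. Gars, which supplies both compartments, had 83.0 ± 5.58 and 81.3 ± 2.50 CPM.

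Of the 5 genes with the ATF4 element in their window, Iars was called. The others stood at 0.11 (Aars), 0.05 (Tars), -0.03 (Gars) and -0.11 (Yars) on the log2 scale. The E-box CACGTG, which reads the same on both strands, occurred in 4 of 13 cytosolic genes (Aars, Farsb, Iars and Tars) and in 1 of 14 mitochondrial genes (Ears2), against 7.15% of all windows. It overlapped the ATF4 element in none of the windows of Aars, Iars and Tars, which held both. An ETS site, CCGGAAGT on either strand, occurred in Farsa, Mars and Rars2 (3.89% of all windows).

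Among the 15 mitochondrial genes that were not called, Ears2, the glutamate enzyme, came closest with 10.2, 11.5, 11.5, 11.3 and 13.4 CPM in Control and 10.1, 8.66, 9.86, 10.6 and 10.6 in 1C-MIM. The groups overlapped through Control 1, and the log2 fold change was -0.22 (SE 0.09, edgeR adjusted p = 0.0834). Without Control 1 it was -0.26 and called (adjusted p = 0.0442). Pars2 stood at -0.21 (SE 0.13), Wars2 at -0.15 (SE 0.10) and Yars2 at -0.13 (SE 0.09). Mars2, which charges the mitochondrial methionine transfer RNA, stood at 0.23 (SE 0.11, edgeR adjusted p = 0.144), a value close to that of Mars. Iars2 stood at 0.12 (SE 0.06). The arginine, histidine and serine enzymes Rars2, Hars2 and Sars2 lay between -0.01 and 0.01. Tars2 stood at -0.06, Vars2 at -0.05, Aars2 at -0.03, Fars2 at -0.02 and Nars2 at 0.02. Exons of Aars, Yars, Farsb, Ears2, Fars2, Iars2, Hars and Hars2 overlap exons of another gene in the tables, so the values of these genes are uncertain to that extent.

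**Figure D4:**
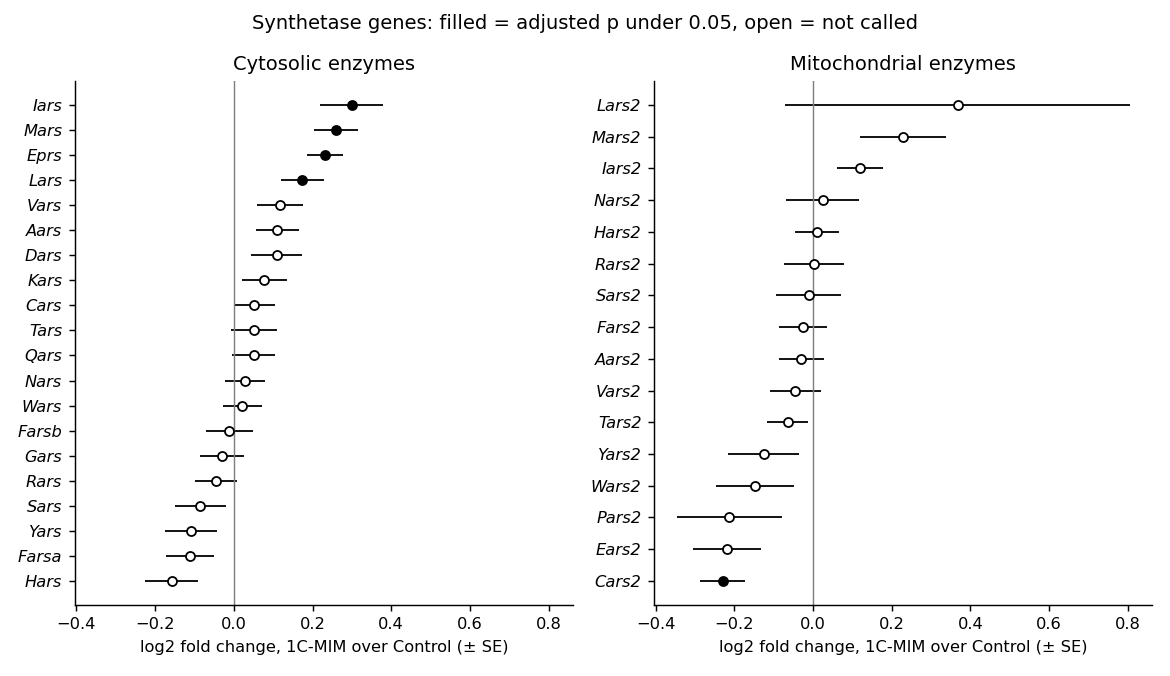
Log2 fold change of each of the 36 synthetase genes, 1C-MIM over Control, with its SE, cytosolic genes on the left and mitochondrial genes on the right; filled points passed an adjusted p under 0.05. Eprs, Mars, Iars and Lars lie at 0.17 to 0.30, Cars2 at -0.23, and Lars2 has an SE of 0.44.

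Lars2 varied widely between animals within each group. It had 346, 162, 154, 141 and 325 CPM in Control 1 to 5 and 160, 414, 550, 144 and 187 CPM in 1C-MIM 1 to 5. Control 1, Control 5, 1C-MIM 2 and 1C-MIM 3 were high, and the other 6 libraries lay between 141 and 187 CPM. On the log2 scale the groups differed by 0.37 (SE 0.44, edgeR adjusted p = 0.571), and by 0.01 to 0.57 as single libraries were left out, with the lowest value without 1C-MIM 3. The same 4 libraries were the highest for Rn45s, the precursor of the ribosomal RNAs, a comparison chosen after the values were seen. Rn45s had 3977 CPM in Control 1, 3422 in Control 5, 3203 in 1C-MIM 2 and 4002 in 1C-MIM 3, and 1645 to 2794 in the others. Of the 36 synthetase genes, 0 had a GENCODE M21 transcript that aligned to the mitochondrial ribosomal RNAs; alignment to Rn45s was not tested. Why Lars2 and Rn45s were high in the same libraries was not tested. Without Lars2, the mitochondrial genes together held 302 to 323 CPM in Control and 303 to 317 in 1C-MIM.

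**Figure D5:**
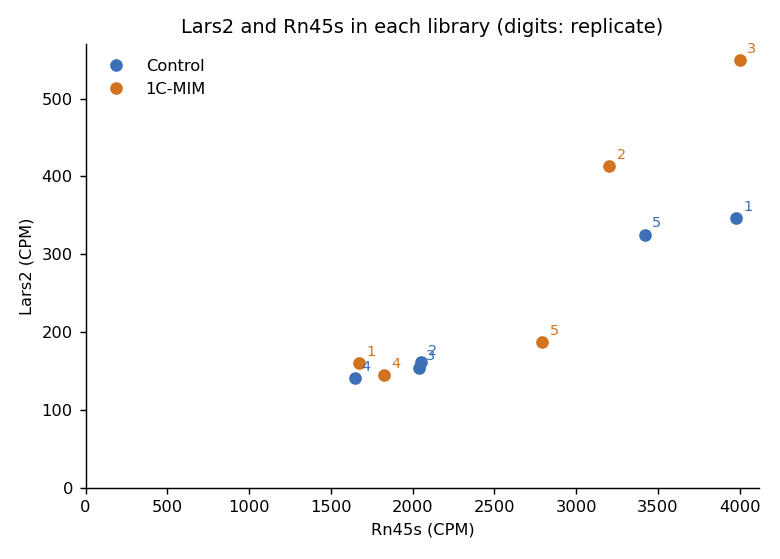
Lars2 against Rn45s in each library, both in CPM on axes that start at 0, Control in blue and 1C-MIM in orange, with digits for the replicate. Control 1, Control 5, 1C-MIM 2 and 1C-MIM 3 lie at the upper right, at 325 CPM of Lars2 or more.

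Ratios of a cytosolic to a mitochondrial gene within a library do not depend on how libraries are scaled. They are given here as log2 ratios of counts, without a test, and the trend with transcript length was not taken out of them. Of 17 pairs, 11 had a higher mean ratio in 1C-MIM, 5 a lower one, and Nars over Nars2 differed by 0.00. Eprs and Fars2 each enter more than once, so the pairs are not independent. The groups did not overlap in 3 of the 17 pairs, and how often ratios of other gene pairs do so was not tested. The pair that differed most was Eprs over Ears2, with 4.56 ± 0.166 in Control and 5.01 ± 0.146 in 1C-MIM (SD, n = 5), and no overlap between the groups. Eprs over Pars2 differed by 0.43, with overlap. Cars over Cars2 went from 1.27 ± 0.044 to 1.56 ± 0.078 and Aars over Aars2 from 2.301 ± 0.054 to 2.443 ± 0.042, both without overlap. The transcripts of Eprs and Ears2 have 4850 and 1846 bases. With the length trend removed, their log2 fold changes went from 0.23 and -0.22 to 0.12 and -0.12. Cars and Cars2 (3222 and 1850 bases) went from 0.05 and -0.23 to 0.02 and -0.13. Aars and Aars2 (3715 and 3349 bases) went from 0.11 and -0.03 to 0.055 and -0.065. Mars over Mars2 hardly differed (0.03), since both genes had higher means. Hars over Hars2 was the lowest difference at -0.17, and exons of these neighbouring genes overlap on opposite strands.

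Per library, the median deviation of the cytosolic genes from their means over all libraries, less that of the mitochondrial genes, was -0.07 to -0.01 on the log2 scale in Control and 0.00 to 0.09 in 1C-MIM. Deviations from a common mean make the group means nearly equal and opposite by construction. The difference between the median log2 fold changes of the 2 classes was 0.08, and 0.03 when the 8 complex genes were left out. In sum, the cytosolic genes held 1633 to 1724 CPM in Control and 1759 to 1827 in 1C-MIM, of which Eprs made up 272 and 319 CPM on average. Unlike the ratios, these sums depend on how libraries are scaled. With libraries scaled by their totals alone, the cytosolic median log2 fold change was -0.03 instead of 0.05. Whether the sums of the 2 groups stay apart under that scaling was not tested.

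Other genes of transfer RNA charging and translation were taken from fixed lists. Their counts stand beside 9.78% higher and 11.8% lower over all 13880 tested genes. Library totals as the scaling gave 606 of all genes higher and 2896 lower, and DESeq2 gave 1795 and 1806. Removing the length trend gave 965 and 1292. In the list of complex scaffolds, editing factors and selenocysteine enzymes, 0 of 12 were called in either direction (median log2 fold change -0.11). The 3 with the smallest p were the scaffold Aimp2 (-0.18, SE 0.06, edgeR adjusted p = 0.0601), the scaffold-related Eef1e1 (-0.33, SE 0.13) and Sepsecs, which makes selenocysteine on its transfer RNA (0.55, SE 0.22). Aimp2 and Eef1e1 have short transcripts, of 1185 and 1039 bases, and stood at -0.01 and -0.16 with the length trend removed, where the median of the list was 0.02. DESeq2 called Aimp2 lower (adjusted p = 0.0379), and library totals gave 0 higher and 3 lower in this list.

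Of 20 cytosolic translation factors, 1 was higher and 2 lower (median -0.08). Library totals as the scaling gave 1 higher and 9 lower, DESeq2 gave 3 and 4, and the median was 0.03 with the length trend removed. Eif5, which helps to select the start codon, rose from 139 ± 11.2 to 174 ± 12.9 CPM (log2 fold change 0.33, edgeR adjusted p = 0.00673). Eef1a1, the elongation factor that delivers charged transfer RNA to the ribosome, fell from 374 ± 24.2 to 305 ± 9.99 CPM (-0.30, edgeR adjusted p = 0.00388). Eif5a, which eases peptide bond formation at difficult residues, was lower too (-0.23). That call was lost with the length trend removed (-0.10, adjusted p = 0.148), and likewise on leaving out the pair Control 1 and Control 5 (-0.19, adjusted p = 0.138).

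Of 15 measured mitochondrial translation factors and charging partners, 0 were higher and 2 lower (median -0.02), and 0 and 4 with library totals, 1 and 3 with DESeq2. Tsfm, the mitochondrial elongation factor Ts, went from 19.8 to 15.98 CPM (-0.31), and Pet112, a subunit of the enzyme that makes mitochondrial glutaminyl transfer RNA, from 24.5 ± 1.38 to 21.2 ± 1.11 CPM (-0.21). Mtif3, a mitochondrial initiation factor, was next (-0.16, edgeR adjusted p = 0.0623). Mtif3 has a transcript of 5099 bases and was called lower with the length trend removed (-0.28, edgeR adjusted p = 0.0287). DESeq2 called it lower as well (adjusted p = 0.0449), but without Control 1 and Control 5 the list held 0 called genes. Neither Tsfm nor Pet112 was called with the length trend removed (adjusted p = 0.1 and 0.0699) or without Control 1 and Control 5 (0.0684 and 0.109). Mtfmt, named after its value was seen because it formylates the mitochondrial initiator methionyl transfer RNA with a folate one-carbon unit, had 4.88 ± 0.458 and 4.35 ± 0.215 CPM (-0.16, edgeR adjusted p = 0.221). In the list of mitochondrial transfer RNA maturation, 1 of 15 genes was called, Hsd17b10, a subunit of mitochondrial ribonuclease P (-0.21), which stood at -0.03 with the length trend removed (adjusted p = 0.717). The next were 1110008L16Rik (0.19, edgeR adjusted p = 0.0683) and Trit1, which modifies transfer RNAs next to the anticodon (-0.23, edgeR adjusted p = 0.105). Library totals gave 0 higher and 4 lower in this list.

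Of 28 measured ATF4 target and stress genes other than synthetases, 2 were higher and 2 lower (median -0.09). Mthfd2, a mitochondrial folate enzyme, had 9.35, 8.48, 7.01, 7.73 and 8.42 CPM in Control and 4.56, 5.08, 5.28, 3.87 and 4.80 in 1C-MIM, with no overlap (log2 fold change -0.80, edgeR adjusted p = 0.000497). Aldh18a1, which starts proline synthesis from glutamate, fell from 6.75 ± 1.00 to 3.51 ± 0.859 CPM (-0.94, edgeR adjusted p = 0.00265). Stc2, a secreted stress-induced glycoprotein, rose from 1.11 ± 0.220 to 1.90 ± 0.302 CPM (0.77). Eif2ak4, the kinase GCN2 that senses uncharged transfer RNA through a histidyl-tRNA synthetase-like domain, rose (6.42 ± 1.19 and 8.56 ± 0.545 CPM; 0.41, edgeR adjusted p = 0.0240). The call of Eif2ak4 was lost with the length trend removed (0.29, adjusted p = 0.0597) and without Control 1 and Control 5 (0.28, adjusted p = 0.1). With libraries scaled by their totals alone, 1 gene of this list was higher and 9 were lower, Atf4, Asns and Ddit3 among them. Over all 13880 genes that scaling gave 606 higher and 2896 lower, with a median of -0.07. The balance of directions thus depended on the scaling, in this list and over all genes.

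Of 14 measured amino acid transporters and sensors, 1 was higher and 2 lower (median -0.03), and 0 and 4 with the length trend removed. Slc38a1, a glutamine transporter, fell from 1.80 ± 0.414 to 0.611 ± 0.311 CPM (-1.55, edgeR adjusted p = 0.00346), and Slc7a5, the large neutral amino acid transporter, from 3.51 ± 0.408 to 2.58 ± 0.197 CPM (-0.44, edgeR adjusted p = 0.0178). The cationic amino acid transporter gene Slc7a2 rose from 59.2 ± 7.18 to 76.6 ± 4.59 CPM (0.37, edgeR adjusted p = 0.00768), and stood at 0.16 with the length trend removed (adjusted p = 0.082).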

How the data were processed

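Total RNA from 10 quadriceps was sequenced, with RNA and libraries made by Active Motif per the labels. Per the file headers, the deposited tables list 33984 RefSeq transcripts, each with its raw count, its FPKM and its TPM; the authors' FPKM values served only to recover transcript lengths, and their deposited TPM values were not used. Build GRCm39 and tools including featureCounts, STAR, Salmon 1.5.2, DESeq2 1.28.0 and Trim Galore 0.6.7 are listed, without roles, in the submitters' processing notes; filters and strand setting are not stated there.

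For each symbol the transcript with the largest total was kept, which left 45.3 to 47.4% of each library's summed transcript counts unused. Of the 36 genes, 13 have several transcripts. In these, the lowest other transcript held from 20.6% (Dars) to 100.0% (Mars, Nars and Yars2) of the kept transcript's total. Whether the same reads were counted for several transcripts was not tested, so the unused share need not be lost reads. Of the synthetase genes, 10 share exon sequence with another gene of the tables on the GRCm38 annotation. Counts were filtered with filterByExpr, scaled by TMM and compared with edgeR 4.0.16 (R 4.3.3, quasi-likelihood, robust), with Benjamini-Hochberg adjustment over 13880 genes and a threshold of 0.05. All 36 genes passed the filter. Log2 levels used a prior count of 2. SEs were taken from the fold change and the F statistic. The pipeline was tested on simulated data. Sequences came from RefSeq windows (GRCm38.p6), matched by symbol.

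The members, the lists and the alternatives were chosen with earlier results of these data known. Named genes were all 36 members and, in each list, the 3 with the smallest p and any called gene where 5 or fewer were called. Alternatives were other scalings and filters, DESeq2 1.42.0, limma-voom (limma 3.58.1), blocks for replicate number and animal number series, removal of the length trend (natural splines, 3 inner knots), counts summed over transcripts, libraries left out and an adjusted p under 0.1. Leaving Lars2 or the complex genes out of the class difference was added after seeing the data. Library depth limits counting error only, which is part of the spread between animals.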

Additional observations from a re-analysis of the deposited data

Results flagged for a closer look

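In 72 groups of 5 libraries (36 genes in each condition), 4 held a library whose gap to its nearest neighbour took up more of the group's range than Dixon's 95% limit allows; chance alone gives about 1 in 20 groups. Gaps and ranges were taken on the log2 scale, while levels are given here in CPM. Lars in Control was flagged for Control 5, with 62.2 CPM against 55.9 to 57.0 in the other Controls (gap over range 0.823). Wars in Control was flagged for Control 3, with 50.8 CPM against 46.7 to 47.8 (0.725). Pars2 in 1C-MIM was flagged for 1C-MIM 1, with 5.39 CPM against 3.97 to 4.19 (0.823). Wars2 in 1C-MIM was flagged for 1C-MIM 5, with 5.89 CPM against 6.67 to 6.88 (0.802).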

How the results depend on the processing

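Eprs, Mars, Iars and Cars2 kept their calls and directions as each single library was left out. The margin was narrow for Iars and Cars2, with edgeR adjusted p of up to 0.0491 and 0.0499, both without 1C-MIM 4. For Eprs and Mars the highest values were 0.0185 and 0.021. Among cytosolic genes, 4 were called higher; library totals as the scaling gave 2 higher (Eprs and Mars) and 3 lower (Hars, Farsa and Yars), removing the length trend gave 2 higher (Mars and Iars), and an adjusted p under 0.1 gave 1 lower. Among mitochondrial genes, 1 was called lower; library totals gave 2 and an adjusted p under 0.1 gave 2 (Ears2 with Cars2 in both), removing the length trend gave 0, and leaving out single libraries gave 1 to 2, with 2 without Control 1. With library totals the median of all genes moved to -0.07. The class difference of 0.0781 was 0.0323 without the complex genes, and 0.0608 to 0.0954 under the other alternatives run for it. Of 792 values of single genes under 22 alternatives, 15 lost a call, 5 gained one and 0 called values changed sign; 13 genes that were not called changed sign in at least 1 alternative.

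Over all genes, 1357 were higher and 1642 lower. Library totals gave 606 and 2896, leaving out Control 1 and Control 5 gave 832 and 976, and an adjusted p under 0.1 gave 2114 higher. Without Control 4 there were 902 higher, without 1C-MIM 3 there were 843 and 1057, and without 1C-MIM 4 there were 739 and 941. The cause of these shifts was not tested. With a replicate block, 4 cytosolic genes were higher and 1 mitochondrial gene lower, as without it, and 1932 and 1965 of all genes were called; same-numbered libraries correlated at -0.075 to 0.387 and matched best in 2 of 5 pairs, so the numbers were not taken as pairs. Depth limits the lowest genes most (Pars2, Mars2, Wars2 and Nars2).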
